A study of Mus musculus with 14 samples.

Results

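The genes described here are 10 members of the Bcl2 family in mouse CD4+ T cells: the BH3-only genes Bbc3, Bcl2l11, Pmaip1, Bmf and Bid, the effectors Bax and Bak1, and the prosurvival genes Bcl2, Bcl2l1 and Mcl1. Members were taken by gene symbol, from a list made with earlier results of these data known. Of the 10, 9 had a probe set with that single symbol in the platform annotation (30 probe sets among 45101, and 9 genes among 18193). Bax had none and is not analysed here. All 9 passed the filter on low signals and were tested together with the other genes, 10916 in all. Where a gene had several probe sets, the brightest on average is the one reported. CD4+ T cells from spleen, peripheral and mesenteric lymph nodes were polarised in culture, and their total RNA was hybridised to 14 Affymetrix arrays in 6 groups. These were Th17 with acetate (3 arrays) and Th17 control (3), Treg with acetate (2) and Treg control (2), and Th1 with acetate (2) and Th1 control (2).

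Every culture held human IL-2. Th17 medium also held TGF-b1, IL-6, IL-1b, IL-23, IL-21, TNF-a and antibodies to IL-4 and IFN-gamma, Treg medium held TGF-b1, and Th1 medium held IL-12 and an antibody to IL-4. The treated cultures were labelled C2. The series design text names sodium acetate at 10 mM for all of them, whereas the sample protocols say acetate for Th17 but acetone, at 10 mM, for Treg and Th1. Culture time is 5 days in the protocols and 6 to 7 days in the design text. No label ties the arrays to different mice or wells, so the p-values speak to the spread between arrays alone, which may be technical. Mouse strain and age were not given in these sources.

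Bcl2 family proteins decide whether the outer mitochondrial membrane is breached in the intrinsic pathway of apoptosis. Bcl2, Bcl2l1 (Bcl-xL) and Mcl1 hold the effectors Bax and Bak1 in check, BH3-only proteins bind the prosurvival proteins or engage the effectors directly, and breach of the membrane releases cytochrome c, which starts the caspase cascade. In T cells, Bcl2l11 (Bim) is a main driver of death when cytokines are withdrawn or a response contracts, and Bcl2 and Mcl1 are needed for survival. Many of these proteins are also controlled after transcription, which arrays do not measure.

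Values are log2(signal + 3) of the deposited MAS5 signals, quantile normalized between arrays. Differences are acetate minus control, or the first named subset minus the other, with the standard error (SE) from limma. The adjusted p comes from limma (Benjamini-Hochberg, 10916 genes), and under 0.05 a gene counts as called. The comparisons share control arrays within a subset. Whether the arrays of compared groups overlapped is given as a description only. In groups this small an unchanged gene can also separate without overlap. The share of all genes that did so is not given here, so lack of overlap is not counted as evidence of a change. In bulk samples, fewer cells of a type and less RNA per cell cannot be told apart. Arrays of a group correlated at 0.940 to 0.983 over 10 pairs, no columns were identical, and the 3'/5' signal ratio ran from 0.986 to 1.23 for Gapdh and from 1.10 to 1.42 for actin. The lineage genes followed the labels for Il17a, which averaged 12.04 in Th17 with acetate and 9.35 in Th17 control and lay at or below 4.23 in all Treg and Th1 arrays. Foxp3 averaged 5.95 in Treg with acetate, below the 6.37 of Th17 control, and 8.37 in Treg control, its highest group mean. Tbx21 and Ifng had their highest group means in Th1 with acetate, at 8.78 and 13.26. Ifng averaged 11.33 in Treg with acetate, above the 10.67 of Th1 control, so Foxp3 and Ifng did not order all groups as the labels would.

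With acetate, 7 of 8 CD4 T cell marker genes on the array fell and 1 (Cd28) rose for the mean effect over subsets. Their summed signal was 7205 to 10805 in Th17 with acetate against 11597 to 12809 in Th17 control, 9874 to 11030 in Treg with acetate against 15246 to 17098 in Treg control, and 8624 to 10817 in Th1 with acetate against 14512 to 14531 in Th1 control. The summed signal of 5 B cell markers was 278 to 796 against 857 to 1426, 919 to 1643 against 2444 to 2781, and 122 against 575 to 739 in the same order of subsets, acetate first. For the mean effect Ighm fell, Cd79b was not called (0.11, adjusted p = 0.791), and Cd79a, Ms4a1 and Pax5 lay below the filter. Of the tested markers of other cell types, Cd8b1 (1.20), Klre1 of NK cells (1.74) and Cd68 of macrophages (1.11) rose and Kit of mast cells (-0.96) fell, while Cd8a, Klrd1, Adgre1, Csf1r, Itgax, Cpa3 and Mcpt8 were not called. Klre1 is dimmer than Klrd1, with signals up to 119 against 2060. The summed signal of 4 NK markers did not rise throughout. With acetate against control it was 372 to 1129 against 862 to 1312 in Th17. In Treg it was 786 to 951 against 1206 to 1694, and in Th1 342 to 572 against 298 to 307. The summed signal of the 2 CD8 markers was 180 to 332 in Th17 with acetate against 51.7 to 179 in Th17 control, 260 to 268 in Treg with acetate against 196 to 217 in Treg control, and 62.3 to 105 in Th1 with acetate against 36.6 to 62.7 in Th1 control. The part of these shifts in the members' differences was not tested. A pair of arrays stood apart in the members: Th1 acetate replicate 2 and Th17 acetate replicate 1, whose low Bcl2l11 and Bcl2 values are given with those genes. Some other members were low there too, and some were higher. Th17 acetate replicate 1 minus the mean of the other arrays of its group was -0.74 for Bbc3 and -0.65 for Mcl1. For Bak1, Pmaip1 and Bmf it was 0.37, 0.24 and 0.09, and for Bcl2l1 and Bid it was -0.06 and 0.01. Th1 acetate replicate 2 minus replicate 1 was -1.16 for Bmf, -0.75 for Mcl1 and -0.50 for Bcl2l1. For Bak1, Bid, Bbc3 and Pmaip1 it was 0.45, 0.40, 0.15 and 0.07.

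The start regions of 3 members are shown, those of Bcl2l11 and Bcl2 because both were low in the same 2 arrays. Bmf was added because it rose with acetate in Th17, where Bcl2 fell and Bcl2l11 was not called. Bmf was also low in 1 of these arrays, Th1 acetate replicate 2. Each line is the 250 bases before the most upstream start listed in RefSeq (GRCm38.p6), 5′ to 3′ on the gene's strand. Any other listed start was not searched. Capitals mark the GC box (GGGCGG, either strand) and, in Bcl2l11 only, a FOXO core (TGTTTAC, here on the opposite strand). The windows are chr2:128125788-128126037 on the plus strand, chr1:106714291-106714540 on the minus strand and chr2:118549687-118549936 on the minus strand.
Bcl2l11: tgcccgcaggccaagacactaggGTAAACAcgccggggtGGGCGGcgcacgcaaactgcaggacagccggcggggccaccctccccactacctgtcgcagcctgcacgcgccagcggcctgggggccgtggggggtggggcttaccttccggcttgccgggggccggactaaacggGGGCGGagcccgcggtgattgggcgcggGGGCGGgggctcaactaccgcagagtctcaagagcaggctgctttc
Bcl2: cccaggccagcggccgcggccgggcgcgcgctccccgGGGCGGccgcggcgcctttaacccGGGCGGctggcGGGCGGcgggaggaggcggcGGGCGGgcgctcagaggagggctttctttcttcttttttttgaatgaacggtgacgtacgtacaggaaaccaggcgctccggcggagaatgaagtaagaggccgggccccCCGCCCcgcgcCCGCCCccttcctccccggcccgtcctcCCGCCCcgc
Bmf: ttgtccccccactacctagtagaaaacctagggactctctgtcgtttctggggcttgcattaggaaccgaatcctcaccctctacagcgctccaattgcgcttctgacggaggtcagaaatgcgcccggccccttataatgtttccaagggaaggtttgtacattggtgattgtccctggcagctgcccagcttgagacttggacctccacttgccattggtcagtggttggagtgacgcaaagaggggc
RefSeq entries matched 9 of the 10 members. Bcl2l11 held 1 FOXO core and 3 GC boxes, Bcl2 held 7 GC boxes and Bmf held neither. Searches on both strands for an E-box (CACGTG), the ATF4 and C/EBP composite (TGATGNAA), an AP-1 site (TGAGTCA) and a STAT site (TTCNNNGAA) found no match in the 3 windows. Over 27025 promoters, 3.06% held the FOXO core and 33.0% a GC box, and 6.04%, 3.53%, 4.43% and 7.14% held the other 4 motifs in the order named. A match is a description of letters and not of binding.

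Averaged over the 3 subsets, 6 of the 9 members changed with acetate, 3 higher and 3 lower, where 31.8% of all genes tested were called (17.7% higher, 14.2% lower). Bbc3, Mcl1 and Bcl2 were lower, and Bmf, Pmaip1 and Bcl2l1 were higher. Members called in single subsets numbered 6 of 9 in Th17 (3 higher, 3 lower; background 20.3%, with 11.7% higher and 8.67% lower), 2 of 9 in Treg (both lower; background 12.5%, with 5.45% lower) and 3 of 9 in Th1 (1 higher, 2 lower; background 4.02%, with 2.10% higher and 1.92% lower). The members' median log2 difference was -0.30 for the mean effect, against 0.03 over all genes tested. With the signals as deposited, without normalization between arrays, the members called were 1 higher and 3 lower in Th17, 2 lower in Treg, 0 in Th1, and 2 higher and 3 lower for the mean effect. Over all genes that setting turned the split in Th17 to 467 higher and 1461 lower, against 1275 and 946 after normalization. In Treg it was 252 and 298, against 768 and 595, in Th1 178 and 45, against 229 and 210, and for the mean effect 1015 and 1288, against 1928 and 1545.

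**Figure D1:**
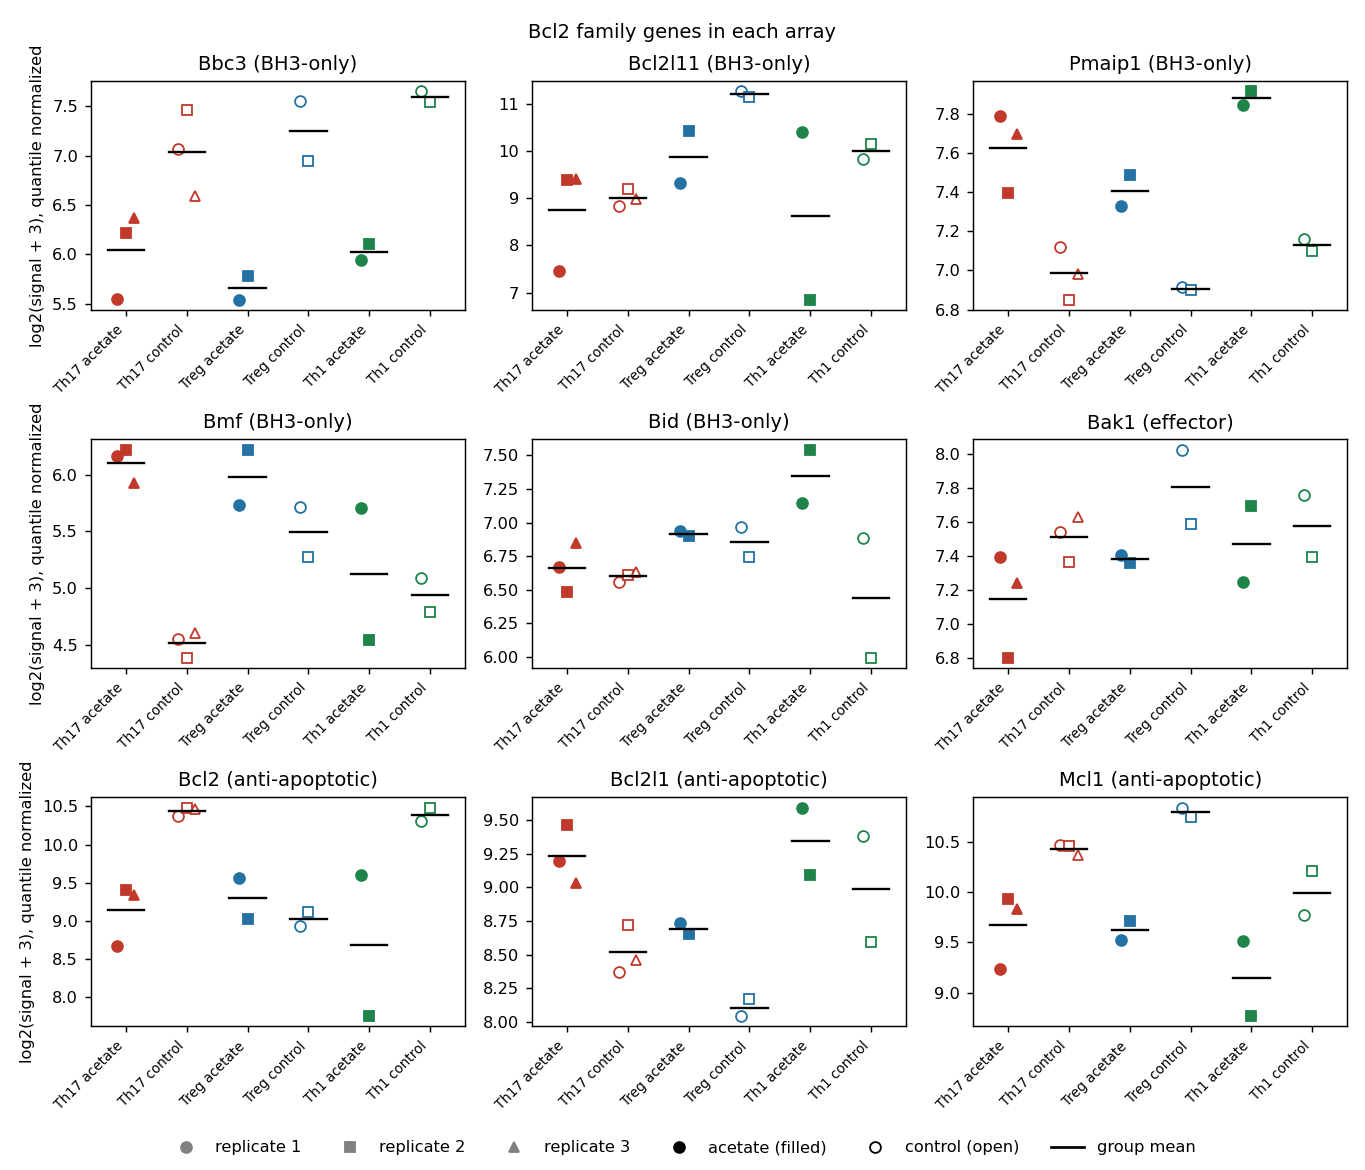
Level of each of the 9 members in every array, as quantile-normalized log2(signal + 3), with acetate groups (filled) left of their controls (open) and a bar at the group mean. Vertical axes differ between panels. Bbc3 lies lower and Pmaip1 higher in every acetate array than in every control array of the same subset, and Bcl2l11 is widely spread in the acetate groups.

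Bbc3 (Puma), a BH3-only gene and a target of p53, fell with acetate in all 3 subsets. In Th17 it read 5.55, 6.21 and 6.36 with acetate and 7.06, 7.46 and 6.59 in control arrays. In Treg the values were 5.54 and 5.78 with acetate and 7.55 and 6.95 in control, and in Th1 they were 5.94 and 6.10 with acetate and 7.65 and 7.55 in control. No acetate array overlapped with a control array of its subset. The log2 difference was -0.997 ± 0.26 in Th17 (SE, adjusted p = 0.0168), -1.59 ± 0.32 in Treg (0.00666) and -1.58 ± 0.32 in Th1 (0.0225). The mean over subsets was -1.39 ± 0.17 (adjusted p = 1e-04), the lowest of the called members. The call for the mean effect was kept without any single array. Leaving out 1 array lost the call in Th17 3 times of 14 (Th17 acetate 1, adjusted p = 0.055; control 1, 0.0546; control 2, 0.0793), in Treg 2 times (acetate 1, 0.0726; control 1, 0.0813) and in Th1 3 times (acetate 2, 0.0747; control 1, 0.0514; control 2, 0.0848). The Th1 call was also lost on the signals as deposited (0.0653). It was not called between control subsets, with group means of 7.04 in Th17, 7.25 in Treg and 7.60 in Th1.

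Pmaip1 (Noxa), a BH3-only gene whose protein binds Mcl1, rose with acetate in Th17 and Th1. Values in Th17 were 7.79, 7.39 and 7.69 with acetate and 7.12, 6.85 and 6.98 in control. In Th1 they were 7.84 and 7.91 with acetate and 7.16 and 7.10 in control, and in Treg 7.33 and 7.49 with acetate and 6.91 and 6.90 in control. Groups did not overlap in any subset, and replicates were close, with a pooled SD of 0.13 against a median of 0.29 over all genes. The log2 difference was 0.64 ± 0.15 in Th17 (adjusted p = 0.00909), 0.50 ± 0.18 in Treg (0.0887) and 0.75 ± 0.18 in Th1 (0.0401), and the mean was 0.63 ± 0.10 (4.51e-04). The Th17 call was lost on the signals as deposited, where the difference was 0.28 (adjusted p = 0.5). The Th1 call was lost in 10 of 14 leave-one-out fits, at adjusted p up to 0.166, and on the signals as deposited (0.124).

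Bmf, a BH3-only gene whose protein is held by the cytoskeleton, rose in Th17. Its values there were 6.17, 6.22 and 5.92 with acetate and 4.55, 4.38 and 4.61 in control, so the groups lay well apart. The log2 difference was 1.59 ± 0.28 (adjusted p = 0.00206), a 3.01-fold change on this scale, and it was kept without any single array. In Treg values were 5.73 and 6.22 with acetate and 5.72 and 5.27 in control (0.48 ± 0.34, adjusted p = 0.406), and in Th1 5.71 and 4.54 with acetate and 5.09 and 4.79 in control (0.19 ± 0.34, 0.795). The Th1 groups overlapped. A limma F test of whether the acetate effect differed between subsets gave an adjusted p of 0.218. Bmf is a dim gene with 3 probe sets, of which the other 2 averaged signals of 4.29 and 3.56. Averaging all 3 gave a Th17 difference of 0.60 (adjusted p = 0.17) and ended the mean call too (0.105), which on the signals as deposited stood at 0.0756.

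Bcl2l11 (Bim) was not called in any comparison, and its arrays disagreed most of all members. In Th17 it read 7.46, 9.38 and 9.40 with acetate and 8.84, 9.20 and 8.99 in control. In Treg it read 9.31 and 10.42 with acetate and 11.26 and 11.15 in control, and in Th1 10.40 and 6.85 with acetate and 9.84 and 10.14 in control. The spread sat mostly in 1 array each of Th17 and Th1 with acetate, and the Treg groups did not overlap. The pooled SD was 1.09, larger than that of 99.8% of genes tested. Differences were -0.26 ± 0.70 in Th17 (adjusted p = 0.828), -1.34 ± 0.86 in Treg (0.352) and -1.37 ± 0.86 in Th1 (0.382), and -0.99 ± 0.47 on average (0.124). The mean effect was -1.58 without Th1 acetate replicate 1 (adjusted p = 0.00216) and -0.40 without replicate 2 (0.353). Th1 acetate replicate 2 lay 3.55 below replicate 1 (deposited signals of 100 and 1473), and only 5 of the genes tested, 0.0458%, differed by as much between these arrays. Without Th1 acetate replicate 1 the Th1 difference was -3.14 (adjusted p = 0.0138) and without replicate 2 it was 0.41 (0.834), so 1 array decided its size and its sign. Th17 acetate replicate 1 lay 1.92 below the mean of the others, and without it the Th17 difference was 0.38 (0.749).

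All 5 Bcl2l11 probe sets were lower in Th1 acetate replicate 2 than in replicate 1, by 1.29 to 3.55, and all 5 lay lower in Th17 acetate replicate 1 than the mean of the others. The low values were therefore shared by every probe set of the gene. Bcl2 showed the same arrays low on all 5 of its probe sets, from -1.43 to -2.10 between the Th1 arrays. The acetate differences of the Bcl2l11 probe sets did not all go one way. In Th17 the reported probe set was lower (-0.26) and the others were higher, by 0.05 to 1.01. The dimmest was also higher in Treg (0.20) and on average (0.30), where the rest were lower. In Th1 all 5 were lower. Leaving out both low arrays was tried after the data were seen, with the arrays picked for their low Bcl2l11, so it gives no support to a result on that gene. On the 12 arrays left, Bcl2l11 was called lower in Treg (-1.34, adjusted p = 0.00418) and its mean effect was -0.19 (0.397). In the same fit 6 members were called in Th17 (24.4% of all genes), 3 in Treg (20.0%), 1 (Bbc3) in Th1 (2.64%) and 7 for the mean effect (34.0%), with Bak1 added at -0.41 (0.0258).

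**Figure D2:**
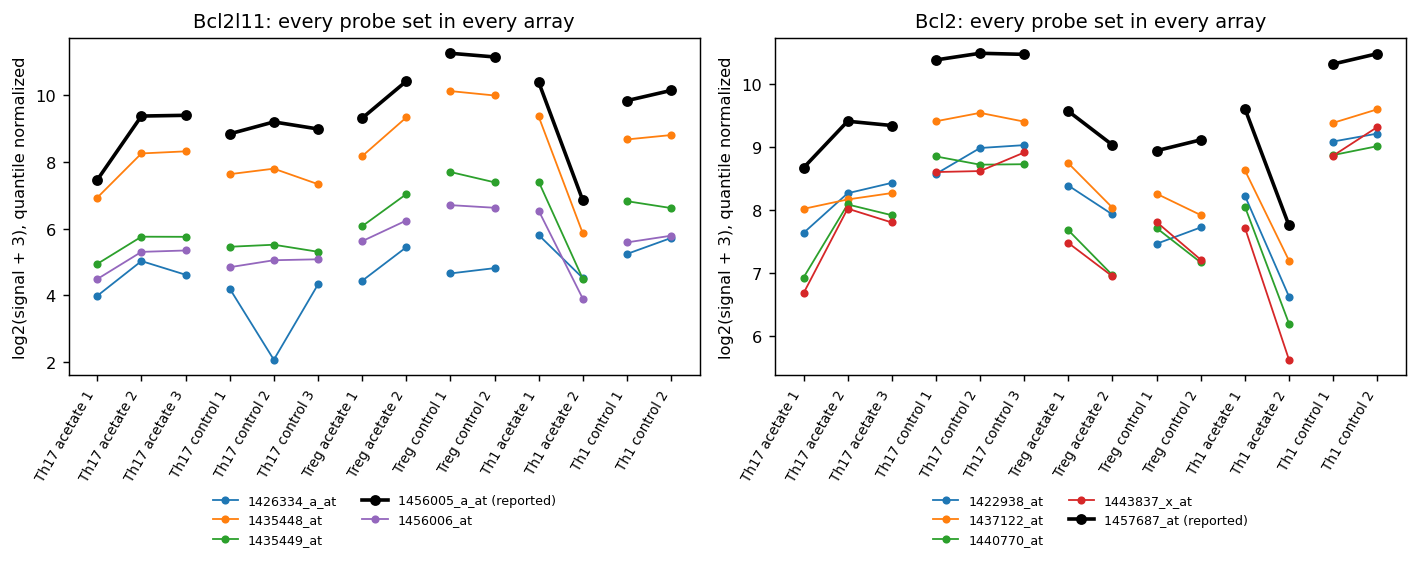
Quantile-normalized log2(signal + 3) of each probe set of Bcl2l11 (left) and Bcl2 (right) in every array, with acetate groups left of their controls. Lines join arrays of a group only to trace a probe set, and the black line is the probe set reported. All 5 probe sets of both genes drop in Th1 acetate replicate 2.

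Bid, a BH3-only protein cleaved by caspase 8, was not called with acetate in any subset. Its Th1 values were 7.15 and 7.54 with acetate and 6.88 and 5.99 in control, which did not overlap (0.91 ± 0.26, adjusted p = 0.0692). In Th17 it read 6.67, 6.48 and 6.85 with acetate and 6.56, 6.61 and 6.63 in control, and in Treg 6.94 and 6.90 with acetate and 6.96 and 6.74 in control. These overlapped, with differences of 0.07 ± 0.21 and 0.07 ± 0.26. The Th1 difference was 1.35 without Th1 control replicate 1 (adjusted p = 0.0155), 1.11 without acetate replicate 1 (0.0466), 0.70 without acetate replicate 2 (0.326) and 0.46 without control replicate 2 (0.388). Bak1, an effector that forms pores, was not called either. It read 7.39, 6.80 and 7.25 with acetate and 7.54, 7.37 and 7.63 in control in Th17 (-0.37 ± 0.20, adjusted p = 0.213). In Treg it read 7.41 and 7.36 with acetate and 8.03 and 7.59 in control (-0.43 ± 0.24, 0.292), and in Th1 7.25 and 7.70 with acetate and 7.76 and 7.39 in control (-0.10 ± 0.24, 0.848).

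Bcl2, the prosurvival protein that gives the family its name, was lower with acetate in Th17 and Th1. In Th17 it read 8.67, 9.40 and 9.34 with acetate and 10.38, 10.48 and 10.47 in control. In Th1 it read 9.61 and 7.75 with acetate and 10.31 and 10.48 in control, and in Treg 9.56 and 9.03 with acetate and 8.94 and 9.11 in control. The groups were apart in Th17 and Th1 and overlapped in Treg. Differences were -1.31 ± 0.35 in Th17 (adjusted p = 0.02), 0.27 ± 0.43 in Treg (0.745) and -1.72 ± 0.43 in Th1 (0.0445), and -0.92 ± 0.23 on average (0.00949). All 5 probe sets were lower in Th17 (-0.75 to -1.31) and in Th1 (-1.58 to -2.42), and in Treg they ranged from -0.30 to 0.56. The Th1 call was lost in 12 of 14 leave-one-out fits, and the difference ran from -2.64 to -0.79, the smaller without Th1 acetate replicate 2 (adjusted p = 0.231). On the signals as deposited its adjusted p was 0.0831. The Th17 call was lost without acetate 1 (0.0631) or any control array (0.0528, 0.0616 and 0.0607). The F test between subsets gave an adjusted p of 0.212, and 0.00338 without Th1 acetate replicate 1.

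Bcl2l1 (Bcl-xL), another prosurvival gene, rose with acetate in Th17. The values were 9.19, 9.47 and 9.04 with acetate and 8.37, 8.72 and 8.46 in control, and the groups did not overlap. The difference was 0.72 ± 0.21 (adjusted p = 0.0266). Treg values were 8.73 and 8.66 with acetate and 8.04 and 8.17 in control (0.59 ± 0.25, 0.15), and Th1 values were 9.59 and 9.09 with acetate and 9.38 and 8.60 in control (0.35 ± 0.25, 0.443), where the groups overlapped. The mean effect was 0.55 ± 0.14 (0.00793). The Th17 call was lost on the signals as deposited (0.39, adjusted p = 0.312) and without acetate 2 (0.103), control 1 (0.0954) or control 3 (0.0837).

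Mcl1, a short-lived prosurvival protein, fell with acetate in Th17 and Treg. In Th17 it read 9.24, 9.93 and 9.84 with acetate and 10.47, 10.45 and 10.36 in control, and in Treg 9.53 and 9.71 with acetate and 10.84 and 10.75 in control. In Th1 it read 9.51 and 8.77 with acetate and 9.77 and 10.20 in control. Acetate and control arrays did not overlap in any subset, which groups this small can show for an unchanged gene too. All 6 probe sets were lower in all 3 subsets, but by unlike amounts. They ranged from -0.34 to -0.77 in Th17, -0.16 to -1.23 in Treg and -0.27 to -1.09 in Th1. The reported probe set, whose values follow, lay near the larger end in each. Differences were -0.76 ± 0.21 in Th17 (adjusted p = 0.0223), -1.17 ± 0.26 in Treg (0.0105), -0.85 ± 0.26 in Th1 (0.0808) and -0.93 ± 0.14 on average (3.47e-04). The Th17 call was lost without acetate 1 (0.0695) or any control array (0.0689, 0.0675 and 0.0554), and the Treg call without acetate 1 (0.0974) or either control array (0.0803 and 0.0592). The Th1 difference was -1.21 without Th1 acetate replicate 1 (0.0168) and -0.47 without replicate 2 (0.457), and it was called without Th17 acetate replicate 1 (-0.84, 0.0347).

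**Figure D3:**
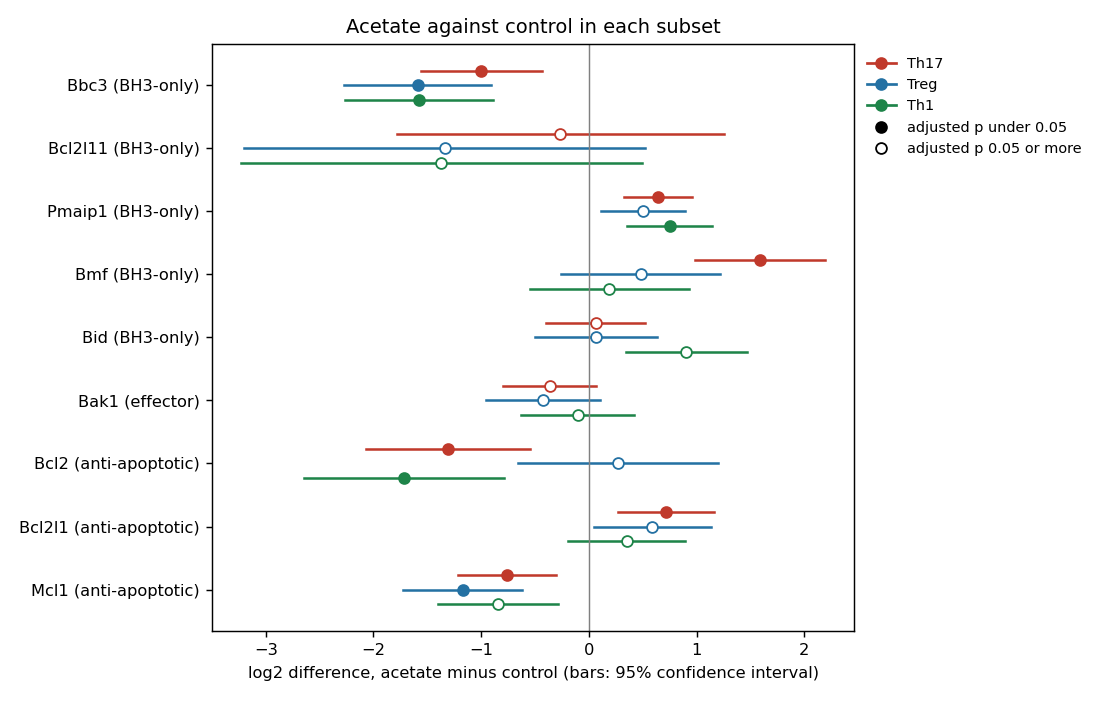
Log2 difference of each member, acetate minus control, in Th17, Treg and Th1, with 95% confidence intervals. Filled points have an adjusted p under 0.05. The Bcl2 estimate is 0.27 in Treg and -1.31 and -1.72 in Th17 and Th1, and the intervals of Bcl2l11 are the widest.

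None of the 9 members was called in the F test of whether the acetate effect differed between subsets (0 of 9; background 0.797%), and 2 of them, Bmf and Bcl2, had an unadjusted p under 0.05, as did 14.6% of all genes. This F test and the comparisons between subsets used the same pooled spread. Without Th1 acetate replicate 1, 2 members were called, Bcl2 (0.00338) and Bmf (0.0256), and 4.78% of all genes. With both low arrays left out, Bcl2 and Bcl2l11 were called. Those arrays were picked after the data were seen for their low Bcl2l11, and Bcl2 was low in them too. The calls in that fit therefore give no support to a difference between subsets in either gene. Both fits leave a lone array in Th1 with acetate, so the spread of that group drops out.

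Between untreated subsets, Bcl2 was the 1 member called, higher in Th17 than in Treg (1 of 9; background 11.4%, with 5.32% higher). Its values were 10.38, 10.48 and 10.47 in Th17 control and 8.94 and 9.11 in Treg control, a log2 difference of 1.42 ± 0.39 (adjusted p = 0.0339), with 1.20 to 1.42 over the 5 probe sets. The call was lost when any of those 5 arrays was left out (adjusted p 0.0717 to 0.193) and when probe sets were averaged (0.0563). No member was called between Th17 and Th1 controls (background 6.60%), where none had an unadjusted p under 0.05, against 22.7% of all genes. None was called between Treg and Th1 controls (background 4.99%), where 3 had an unadjusted p under 0.05, against 18.5% of all genes. These were Bcl2 (-1.37 ± 0.43, adjusted p = 0.0919), Bcl2l1 (-0.88 ± 0.25, 0.064) and Mcl1 (0.81 ± 0.26, 0.0946). The Th1 acetate arrays are not in that contrast but share the spread. With 1 or the other of them left out, these adjusted p were smaller. Such a fit leaves a lone array in that group, whose spread then drops out of the pooled estimate. The smaller values therefore give no support to these differences. Bcl2l11 averaged 9.01 in Th17 control and 11.20 in Treg control (-2.19 ± 0.79, 0.0929), and Bmf averaged 4.51 and 5.50 in the same groups (-0.98 ± 0.31, 0.0599). For Bcl2l11 and Bmf too the adjusted p was smaller without 1 or the other Th1 acetate array, for the same reason. The SD in Th1 with acetate, 2.51 for Bcl2l11 and 0.82 for Bmf, was the largest of the 6 groups for each gene.

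With acetate, no member was called between Th17 and Th1 (background 5.25%), Treg and Th1 (1.50%) or Th17 and Treg (0.925%). At an unadjusted p under 0.05 there were 3 members (Bmf, Bid and Mcl1; 20.3% of all genes), 3 (Pmaip1, Bmf and Bcl2l1; 15.8%) and 1 (Bcl2l1; 12.1%). Group means of Bmf were 6.10 in Th17 and 5.13 in Th1 (0.98 ± 0.31, adjusted p = 0.0935). Without Th1 acetate replicate 1 this was 1.56 (0.00727), and 3 members were then called in that comparison (10.8% of all genes) and 3 between Treg and Th1 with acetate (6.91%).

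The order of the group means differed between members. Mcl1 and Bcl2l11 were highest in Treg control (10.79 and 11.20) and lowest in Th1 with acetate (9.14 and 8.62). For Bcl2l11 that last place rests on 1 array, since the Th1 acetate arrays read 10.40 and 6.85. It also holds for the reported probe set only. Every other Bcl2l11 probe set had its lowest group mean in Th17 control, and the dimmest had its highest in Th1 control. Bcl2 was highest in Th17 control (10.44) and Th1 control (10.39), whose arrays overlapped, and lowest in Th1 with acetate (8.68), where its arrays read 9.61 and 7.75. Bbc3 was highest in Th1 control (7.60) and lowest in Treg with acetate (5.66). Pmaip1 and Bcl2l1 were highest in Th1 with acetate (7.88 and 9.34) and lowest in Treg control (6.91 and 8.11), and Bmf was highest in Th17 with acetate (6.10) and lowest in Th17 control (4.51). Bid was highest in Th1 with acetate (7.34) and lowest in Th1 control (6.44), and Bak1 was highest in Treg control (7.81) and lowest in Th17 with acetate (7.15). Apart from Bcl2 between Th17 and Treg controls, no 2 subsets under the same treatment were told apart by the test for any member, so the order among them is not resolved.

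Genes around the family moved as follows for the mean effect over subsets. Of 13 tested genes listed as regulators of BH3-only genes, 7 fell and 0 rose. The largest were Trib3 (-1.88), Chac1 (-1.63), Egr1 (-0.92) and Runx1 (-0.90). Trib3 and Chac1 are targets of the ATF4 stress response, so the count is not of direct regulators alone. Trp53, also listed, had no probe set with that single symbol. Of 14 p53 target genes, 9 fell and 1 rose, with Btg2 (-1.19), Trp53inp1 (-1.11) and Phlda3 (-0.80) lower and Perp (0.74) higher. Neither Bbc3, which fell, nor Pmaip1, which rose, is in that list. Of 11 apoptosome and caspase genes, 5 rose and 3 fell, with Casp6 at 1.47. Of 7 inhibitors of apoptosis, 3 fell and 1 rose, with Birc2 and Xiap both at -0.80 and Birc5 at 1.20. Of 8 other Bcl-2 family genes, 2 rose (Bcl2l14, 1.18; Bik, 0.98), and Bnip3, which rose by 2.58 in Treg, differed between subsets (F test, adjusted p = 0.0285). Of 8 death receptor genes, 2 fell (Cflar, -0.50; Casp8, -0.34) and 1 rose (Tradd, 0.36). Of 5 Mcl1 turnover genes, 1 rose (Btrc, 0.51) and 1 fell (Gsk3b, -0.36). Of 10 survival cytokine receptor and STAT5 target genes, 4 fell and 2 rose, with Il7r (-1.05) and Socs2 (-0.88) lower and Il2ra (0.87) higher. The background for this comparison was 31.8%.

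**Figure D4:**
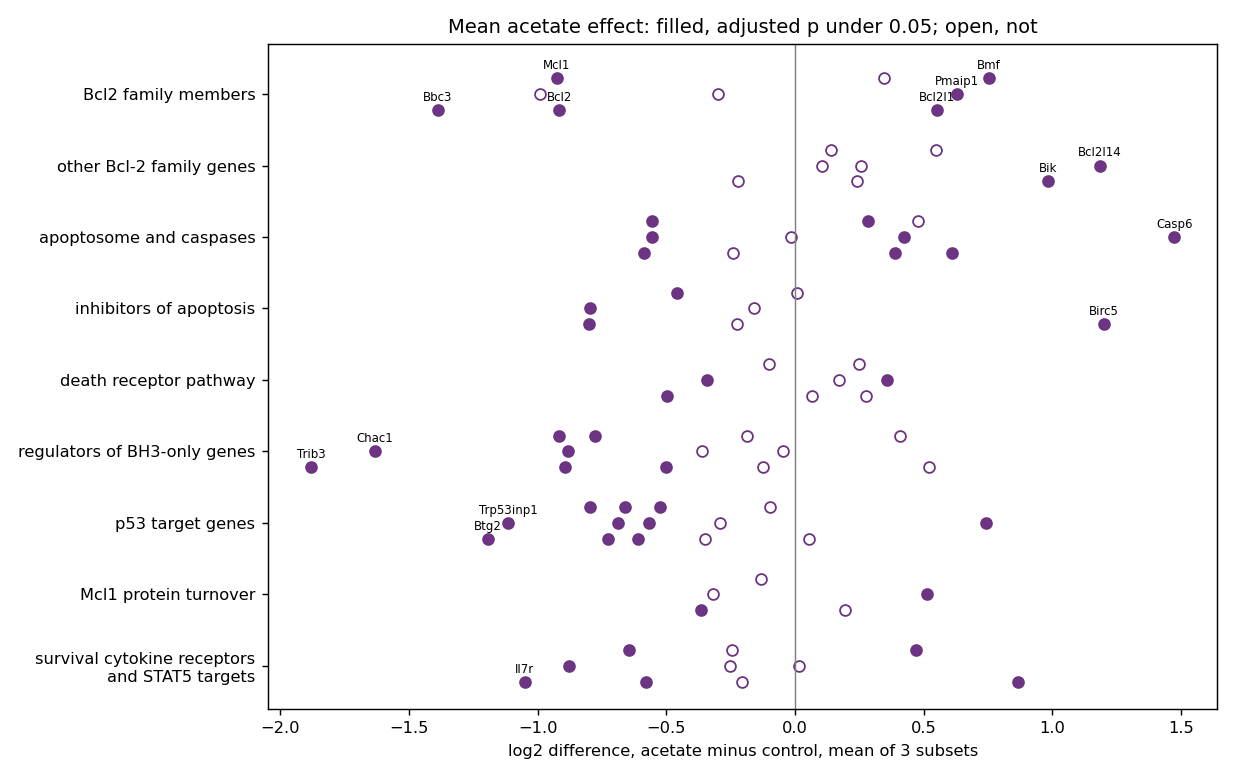
Mean acetate effect over the 3 subsets (log2 difference, acetate minus control) of the 9 members and of 8 lists of related genes, with filled points at an adjusted p under 0.05. Called genes past 0.95 in size and all called members carry their names. No called gene of the list of regulators of BH3-only genes, which includes the ATF4 targets Trib3 and Chac1, lies above 0.

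Over the 14 arrays, the genes whose pattern was most like a member's by Pearson r were Tmem186 for Bbc3 (0.93), Ddit3 for Bcl2 (0.92), Mknk2 for Mcl1 (0.97), Cc2d1a for Bmf (0.96), Cnn3 for Bcl2l1 (0.96) and 2810025M15Rik for Pmaip1 (0.95). These correlations pool the 6 groups, and the arrays share their normalization.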

How the data were processed

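The deposited values are linear signal intensities, 1 for each probe set of each array. The submitters' processing notes name MAS5 as their source, with no version or scaling target. Trimmed means of the deposited signals ran from 52.7 to 115.0 between arrays. Signals were therefore taken as log2(signal + 3) and quantile normalized between arrays, and the signals as deposited are an alternative. A log2 difference on this scale understates the change of dim genes. Of 45101 probe sets, 34958 carry 1 symbol in the platform annotation, 932 several and 9211 none there. Each gene was represented by its brightest probe set, and the test kept genes whose mean log2 reached the 40th percentile (3.60, a signal of about 9.10). The fit was limma 3.58.1 in R 4.3.3 over all 14 arrays, with a mean for each of the 6 groups, a trended eBayes and 8 residual degrees of freedom. A lone array left in a group by leaving out the other is assumed to share the spread of the rest. The number of arrays limits the precision. In simulated data, 100 of 10916 genes were given a log2 change of 1 and another 100 a change of 2. Changes of 1 were called in 49% of cases in Th17, 20% in Treg, 22% in Th1 and 77% for the mean effect. Fewer genes changed there than were called with acetate in the data, and the Benjamini-Hochberg cutoff depends on that number. These rates therefore do not give the power of the tests reported here.

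The members, the gene lists and the choice of normalization were made with earlier results of these data known. The text names all members, and of each list up to 4 called genes by size. Alternatives were other scalings, pseudocounts of 1 and 16, no filter, averaged probe sets, each array left out and a replicate block. Leaving out both low arrays, and a crossed pairing in Th1, were added after the data were seen. Present and absent calls were not used.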

Additional observations from a re-analysis of the deposited data

How the results depend on the processing

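Scaling to one trimmed mean and pseudocounts of 1 and 16 left every count of members called in the 11 comparisons as reported. On the signals as deposited 0 members were called in Th1 (3 as reported), 1 between untreated Th17 and Th1 (0) and 2 between untreated Th17 and Treg (1); the median log2 difference of all genes there was -0.29 in Th17, -0.13 in Treg, 0.23 in Th1, 0.62 between untreated Th17 and Th1, 0.19 between Treg and Th1 and 0.41 between Th17 and Treg. Genes higher and lower there numbered 2906 and 119 between untreated Th17 and Th1 (327 and 393 as reported), 204 and 62 between Treg and Th1 (312 and 233), 1327 and 228 between Th17 and Treg (581 and 658), and with acetate 310 and 109 (352 and 221), 58 and 45 (119 and 45) and 60 and 17 (47 and 54) in the same order. Without the filter 1 member was called in Th1 (288 genes in all), and with averaged probe sets 0 between untreated Th17 and Treg (1039 in all). Leaving out each array in turn gave 2 to 6 members called in Th17, 0 to 2 in Treg, 0 to 6 in Th1, 6 to 7 for the mean effect, 0 to 3 between untreated Treg and Th1, 0 to 3 between untreated Th17 and Treg, 0 to 3 between Th17 and Th1 and 0 to 3 between Treg and Th1 with acetate, and 0 to 2 in the F test. Over all genes these fits called 1367 to 2522 in Th17, 359 to 1639 in Treg, 74 to 955 in Th1, 2738 to 3671 for the mean effect and 1 to 522 in the F test, and with acetate 171 to 1175 between Th17 and Th1 and 10 to 754 between Treg and Th1. The replicate numbers were not taken as pairs, because no label says that a number marks a shared animal or day. Same-numbered arrays deviated together at r of 0.153, 0.159 and -0.064 in Th17, 0.062 in Treg and -0.158 in Th1. These r cannot decide the question: in Treg and Th1, with 2 arrays a group, both numbers give the same r by construction. With the replicate block 1 member was called in Th1 (225 genes in all, against 439) and 0 between untreated Th17 and Treg (887, against 1239), and Mcl1 in Th17 had an adjusted p of 0.0522. A crossed pairing of the Th1 arrays, added after the data were seen, called 5 members and 750 genes in Th1. Leaving out Th17 acetate replicate 1 and Th1 acetate replicate 2 together, also added after the data were seen and chosen for low member values, called 1 member in Th1 (2.64% of all genes, against 4.02% as reported), 2 between untreated Th17 and Th1 (13.9%, against 6.60%), 4 between untreated Treg and Th1 (10.6%, against 4.99%), 3 between untreated Th17 and Treg (18.9%, against 11.4%) and 2 in the F test (1.93%, against 0.797%). No called member changed sign in these fits, the crossed pairing aside, for which members were only counted. The causes of these changes were not tested.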
